A study of Mus musculus with 12 samples.

Results

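Core genes of the circadian clock, 10 in all, were followed in mouse osteocytic cells under fluid flow. They were taken by name and Ensembl gene ID: Arntl (also Bmal1), Clock, Per1, Per2, Per3, Cry1, Cry2, Nr1d1 (REV-ERBα), Nr1d2 (REV-ERBβ) and Dbp, and all 10 were found among the 37583 gene IDs counted and all 10 were among the 14904 genes tested. RNA-seq libraries came from Ocy454 cells, a line from mouse long bone that carries a temperature-sensitive T antigen and was used as a single-cell sub-clone. The control cells (genotype label "original cells") and the DKO cells (HDAC4 and HDAC5 deletion) were each kept static or exposed for 3 h to fluid flow shear stress (FFSS), with 3 libraries for each of the 4 groups and 12 in all. All groups had been grown at 37 °C for 14 days, and FFSS was made by orbital rotation of the dishes on a heated mixer. Both deleted genes encode class IIa histone deacetylases. Each genotype is 1 cell line, so deletion and line cannot be told apart, and whether the DKO line is 1 clone is not given in the sources used here. All libraries are from a single time, so a difference in level cannot be told apart from a shift in the phase of a rhythm, and whether the cultures were synchronised is not given in the sources used here. The labels do not say whether the 3 libraries of a group came from separate cultures. The p-values measure the spread between libraries, with 1 estimate per gene shared by all 4 groups. That spread was unequal: the coefficient of variation between replicates was 0.190 in control FFSS and 0.0328 to 0.0446 in the other groups. The spread of control FFSS libraries thus enters the p-values of all comparisons in the main fit, also of those that do not use these libraries.

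The clock is a feedback loop of transcription that nearly every mammalian cell carries, bone cells included. ARNTL and CLOCK bind each other and switch on genes through a DNA element called the E-box. Among the genes they switch on are those for the PER and CRY proteins, which return to the nucleus and block ARNTL and CLOCK, and for the REV-ERB receptors, which repress Arntl through the ROR element. DBP is a transcription factor at the output of the loop and acts through the D-box. Per1 and Per2 are also known as early-response genes that extracellular signals induce within hours, in part through a cAMP response element (CRE).

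Between 17.6 and 19.2 M reads were assigned to genes per library, and 3 counts, taken as the floor of detection for counting error only, correspond to at most 0.178 CPM (counts scaled to the library total, with TMM factors). Even Dbp, with the smallest group mean among the 10 genes (161 counts in control FFSS), lay far above it. Replicate 1 of control FFSS stood apart from the other two: its counts differed from theirs with a chi-square of 63.8 and 58.0 per degree of freedom, where every other pair of replicates gave at most 6.45. Reads outside annotated genes were 5.87% in that library and 9.19% and 10.04% in replicates 2 and 3, against 5.10 to 5.21% in control static, 7.07 to 7.14% in DKO static and 7.93 to 8.55% in DKO FFSS libraries. Counts of clock genes past the threshold of the test, in comparisons that use control FFSS, are therefore also given without replicate 1. The other comparisons share the estimate of spread and shifted as well without it. The share of all genes that passed went from 0.872% to 10.5% for FFSS in DKO cells. For DKO against control static cells it went from 54.2% to 63.8%. Hdac4 and Hdac5 transcripts were lower in DKO than in control static cells and not lost (log2 fold change −0.85 and −0.65 for the longer Hdac4 gene ID and Hdac5). Under FFSS Hdac4 was lower in the libraries labelled DKO (−1.48), whereas Hdac5, at 92.4 to 93.3 CPM in them and 71.1 to 90.2 CPM in control FFSS libraries, was higher in all 3 (log2 0.19, adjusted p = 0.0512), which goes against the label. Which part of each gene was deleted is not given in the sources used here, so whether these counts check the label is not known, and DKO names libraries by their label throughout. The summed level of 6 osteocyte markers was 78.1 to 117 CPM in control static and 3602 to 3689 CPM in DKO static libraries, with Sost between 1.48 and 12.4 CPM and between 2042 and 2097 CPM, and Fgf23 was at or near 0 everywhere. Of these 6, Pdpn went the other way, from 28.4 to 5.11 CPM on average (log2 −2.47, adjusted p = 8.57e-10). Osteoblast markers (8 gene IDs) summed to 30506 to 36884 CPM in control static, 10590 to 31300 CPM in control FFSS and 96330 to 107754 CPM in DKO static libraries. These sums were mostly Col1a1 and Col1a2. Between the static groups Col1a1, Col1a2 and Bglap passed as higher in DKO cells. Ibsp, Alpl, Sp7 and the Runx2 gene ID with counts did not pass (adjusted p from 0.0706 to 0.720). The sum of 5 chondrocyte markers was 78.1 to 103 CPM in control static, mostly Sox9, and 2360 to 2947 CPM in DKO static libraries, mostly Col2a1 and Col10a1. Of these 5, Acan did not pass (log2 −0.26, adjusted p = 0.653). In the same 2 groups 4 adipocyte markers summed to 33.96 to 38.96 and 19.1 to 24.1 CPM, mostly Cebpa in both. There 4 blood markers summed to 24.4 to 29.0 CPM, mostly Cd68, and to 4.29 to 4.83 CPM, mostly Cd68 and Lyz2. Of these 4, Lyz2 went the other way, from 0.595 to 2.13 CPM on average (log2 1.83, adjusted p = 8.97e-05). In contrast, 3 endothelial markers summed to at most 1.03 CPM and Ptprc, the pan-leukocyte marker, reached at most 0.178 CPM in any library. The part of these differences in marker level in the results on genotype was not tested.

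In control static cells all 10 genes were expressed, and their levels per length of exon (RPKM, reads scaled to exon length and library total) ranged over more than an order of magnitude. Cry1 was highest at 26.7 ± 0.827 RPKM (SD, n = 3). Arntl (13.3 ± 0.325) and Clock (12.9 ± 0.558) followed, and the libraries of these partners overlapped. Nr1d1 (9.58 ± 0.416), Nr1d2 (8.40 ± 0.743), Per1 (6.42 ± 0.377) and Dbp (5.01 ± 0.434) came next, each with its libraries apart from its neighbours'. Per2 (3.58 ± 0.267) and Cry2 (3.52 ± 0.0411) overlapped, and Per3 was lowest at 1.22 ± 0.0986 RPKM. Cry1 held the first place and Per3 the last in all 4 groups. In between, the order of the levels differed: Per1 ranked 6 in control static and control FFSS, 4 in DKO cells at rest and 3 in DKO cells under FFSS, and Dbp moved from rank 7 in control static to rank 9 in both FFSS groups.

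**Figure D1:**
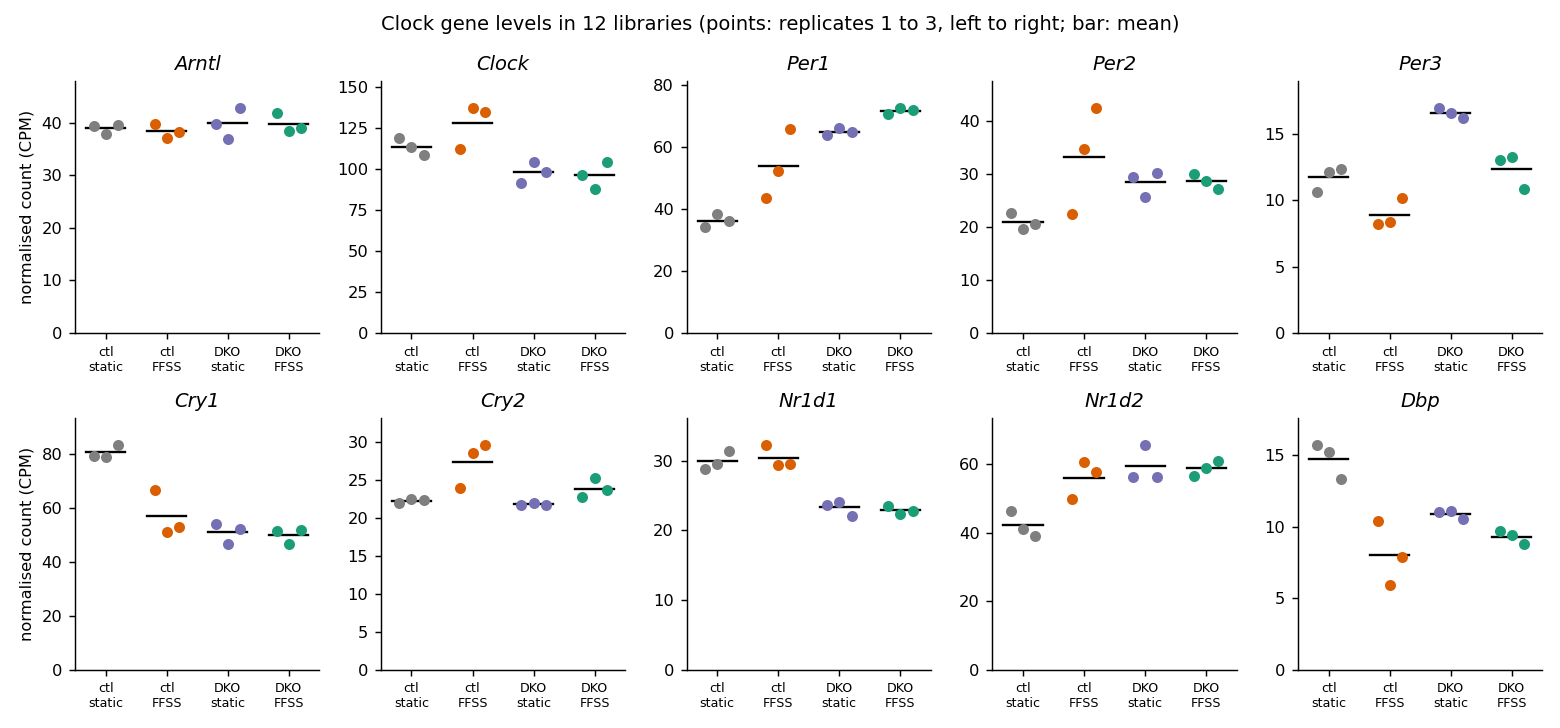
Level of each of the 10 clock genes in the 12 libraries, in CPM on a linear axis from 0, with 1 point per library and a bar at the mean of 3. Control FFSS libraries have the largest SD for 8 of the 10 genes, all but Arntl and Per3: Per2 runs from 22.5 to 42.4 CPM there and from 27.1 to 30.1 CPM in DKO FFSS libraries.

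The first comparison asks which clock genes FFSS changes in control cells. Of the 10 genes, 7 passed an adjusted p of 0.05 (edgeR quasi-likelihood test, Benjamini-Hochberg over 14904 genes), where 35.8% of all genes tested did. With the share of reads outside genes as a covariate only Per3 passed, where 15.4% of all genes did. Per1, Per2, Cry2 and Nr1d2 rose by 1.23- to 1.59-fold, 4 of 10 where 17.7% of all genes were higher. Per3, Cry1 and Dbp fell by 1.31- to 1.84-fold, 3 of 10 where 18.1% of all genes were lower. Arntl, Clock and Nr1d1 did not pass. Per3 missed the threshold without control static replicate 2 or 3 or control FFSS replicate 2 (adjusted p from 0.0549 to 0.0626), and Cry2 without control FFSS replicate 3 (0.0581). No member passed the study's added criterion of a more than 2-fold change, which 5.93% of all genes met, although Dbp did without control FFSS replicate 1. The 3 libraries of one group lay wholly above those of the other for 6 members, with 3 higher and 3 lower, where 41.3% of all genes showed such separation. The median absolute log2 fold change was 0.40 over the 10 members and 0.26 over all genes. With library totals alone in place of TMM, the median of all genes moved to 0.13 and 4096 of 5771 genes passed as higher, against 2633 of 5338 with TMM, and among the members Clock entered as higher and Per3 left.

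Neither activator passed under FFSS. Arntl (mm9 chr7:120350979-120457636, plus strand) was at 39.5, 37.9 and 39.6 CPM in control static and at 39.9, 37.1 and 38.2 CPM in control FFSS libraries. The groups overlapped, with a log2 fold change of −0.02 and a 95% interval from −0.17 to 0.12 (adjusted p = 0.810). In DKO cells it was at 39.9, 37.0 and 42.8 CPM static and at 41.8, 38.4 and 39.0 CPM under FFSS, again overlapping (log2 fold change −0.01, interval −0.15 to 0.14). Arntl was thus the member with the smallest range over the 4 group means, 0.05 on the log2 scale. Clock (chr5:76639992-76733817, minus strand), the histone acetyltransferase partner of ARNTL, was at 118, 113 and 109 CPM in control static and at 112, 137 and 135 CPM in control FFSS libraries, where replicate 1 lay among the static values. Its log2 fold change was 0.17 (interval −0.01 to 0.35, adjusted p = 0.124), and without control FFSS replicate 1 it was 0.26 (adjusted p = 0.000795). In DKO cells Clock was at 91.4, 104 and 98.2 CPM static and at 96.3, 87.4 and 104 CPM under FFSS, and the groups overlapped.

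The 3 period genes encode the partners of CRY in the repressor complex and did not move alike. Per1 (chr11:68908719-68923462, plus strand) was at 34.1, 38.3 and 36.0 CPM in control static and at 43.6, 52.2 and 65.9 CPM in control FFSS libraries, all of which were higher. It rose 1.49-fold (log2 0.58, SE 0.11, adjusted p = 0.00183). Per2 (chr1:93312561-93355907, minus strand) was at 22.6, 19.6 and 20.5 CPM in control static and at 22.5, 34.7 and 42.4 CPM in control FFSS libraries. Replicate 1 of control FFSS lay within the static range, and the other libraries at more than 34 CPM lay well above it. It rose 1.59-fold (log2 0.67, SE 0.18, adjusted p = 0.0128), and by 0.88 on the log2 scale without that replicate. In a fit of the 6 control libraries alone Per2 did not pass, and with the share of reads outside genes as a covariate its value turned to −0.0337 on the log2 scale (adjusted p = 0.906). Per3 (chr4:150377761-150418774, minus strand) went the other way, from 10.6, 12.1 and 12.4 CPM to 8.22, 8.35 and 10.2 CPM. It fell 1.31-fold (log2 −0.39, SE 0.11, adjusted p = 0.0159) with every FFSS library below every static one.

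In DKO cells no period gene passed under FFSS in the main edgeR fit. Per1 was at 63.8, 66.2 and 65.0 CPM in DKO static and at 70.7, 72.6 and 71.9 CPM in DKO FFSS libraries, so the groups separated by a narrow gap, with a log2 fold change of 0.14 that did not pass (SE 0.11, adjusted p = 0.650). Per2 was at 29.4, 25.6 and 30.2 CPM static and at 30.1, 28.6 and 27.1 CPM under FFSS, overlapping. Per3 was at 16.9, 16.6 and 16.2 CPM static and at 13.0, 13.3 and 10.9 CPM under FFSS, all lower. Its log2 fold change of −0.42 (SE 0.11) was as large as in control cells but missed the threshold over all genes (unadjusted p = 0.00171, adjusted p = 0.0886). Per3 gained the threshold in 4 of 22 alternatives, among them without control FFSS replicate 1 (adjusted p = 0.00398), where 10.5% of all genes passed.

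The promoter windows that RefSeq places 250 bases before to 50 bases after a start (build GRCm38.p6, not the mm9 build of the counts) were matched to 9 of the 10 members, all but Per2. They were searched on both strands for the elements named above, with positions counted from the start site. The Per1 and Per3 windows were picked with the results known, as these genes moved in opposite directions under FFSS in control cells. They hold different elements, and the part of these elements in the responses was not tested. For Per1 the first stretch holds an E-box (CACGTG) in capitals, at −166 of its first start, and the second holds the CRE core (TGACGT), at −132 of another start. For Per3 the capitals mark 2 copies of the D-box TTATGTAA, at −205 and −158.
Per1, chr11:69098765-69098809, plus strand: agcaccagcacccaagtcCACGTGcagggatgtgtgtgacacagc
Per1, chr11:69100002-69100046, plus strand: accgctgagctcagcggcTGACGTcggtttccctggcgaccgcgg
Per3, chr4:151044811-151044875, minus strand: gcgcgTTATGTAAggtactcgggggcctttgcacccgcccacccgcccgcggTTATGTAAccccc
The D-box letters are in 0.938% of all 32851 windows, the E-box in 7.15% and the CRE core in 7.51%. The full CRE, TGACGTCA, which contains the CRE core, was in 1.79% of windows and in none of the members'. A match is letters in a window and does not show binding.

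The cryptochromes, the repressor partners of the PER proteins, also moved in opposite directions in control cells. Cry1 (chr10:84594447-84647799, minus strand) was at 79.2, 78.9 and 83.4 CPM in control static and at 66.7, 51.0 and 52.7 CPM in control FFSS libraries, which were all lower. It fell 1.42-fold (log2 −0.50, SE 0.09, adjusted p = 0.00142). Cry2 (chr2:92243803-92274200, minus strand) was at 22.0, 22.5 and 22.3 CPM in control static and at 23.9, 28.6 and 29.7 CPM in control FFSS libraries. It rose 1.23-fold, the smallest change among the members that passed in this comparison (log2 0.30, SE 0.08, adjusted p = 0.0137). In DKO cells Cry1 was at 54.1, 46.6 and 52.3 CPM static and at 51.4, 46.6 and 51.9 CPM under FFSS, with the groups overlapping (log2 fold change −0.03, interval −0.23 to 0.18). Cry2 was at 21.8, 22.0 and 21.8 CPM in DKO static and at 22.7, 25.2 and 23.7 CPM in DKO FFSS libraries, all higher, with a log2 fold change of 0.13 that did not pass (adjusted p = 0.584).

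Both cryptochrome promoters hold elements of the ARNTL and CLOCK kind, shown because they are where the activators are known to act on this family. In Cry1 the capitals mark an E-box at −60 and, at −79, AACGTG, the reverse complement of the variant E-box CACGTT. In Cry2 they mark the same AACGTG at −166.
Cry1, chr10:85185100-85185144, minus strand: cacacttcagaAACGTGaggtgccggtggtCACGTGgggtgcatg
Cry2, chr2:92434214-92434253, minus strand: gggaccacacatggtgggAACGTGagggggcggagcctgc
The variant E-box was in 4.68% of all windows. Elements of 1 family stood in windows of genes that rose (Per1, Cry2), of a gene that fell (Cry1) and of a gene that did not pass (Nr1d1, below) in control cells. The part of these elements in the responses was not tested.

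Of the REV-ERB receptors, heme-binding repressors that link the loops of the clock, Nr1d2 changed under FFSS in control cells. Nr1d2 (chr14:19036568-19071641, minus strand) was at 46.2, 41.1 and 39.0 CPM in control static and at 49.7, 60.5 and 57.5 CPM in control FFSS libraries, all higher. It rose 1.33-fold (log2 0.41, SE 0.09, adjusted p = 0.00385). Nr1d1 (chr11:98629246-98636647, minus strand) was at 28.9, 29.5 and 31.4 CPM in control static and at 32.3, 29.4 and 29.6 CPM in control FFSS libraries, overlapping (log2 fold change 0.02, interval −0.12 to 0.17, adjusted p = 0.811). In DKO cells the groups overlapped for both receptors. Nr1d2 was at 56.3, 65.6 and 56.2 CPM static and at 56.5, 58.9 and 60.9 CPM under FFSS. Nr1d1 was at 23.7, 24.1 and 22.1 CPM static and at 23.6, 22.4 and 22.8 CPM under FFSS. Exons of Nr1d1 share 263 bases with Thra, the thyroid hormone receptor α gene on the other strand, which had 373% of its counts. The counting took no account of strand, so reads from the shared stretch cannot be assigned and Nr1d1 values are uncertain to that extent. Thra itself was lower in control FFSS cells (log2 fold change −0.36, adjusted p = 0.0340).

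The Nr1d1 window holds a variant E-box (AACGTG, at −28), and 1 of the Arntl windows holds the ROR element TAGGTCA at +31, the element through which REV-ERB and ROR proteins compete at Arntl. They are shown as the pair of genes that closes the second loop, and neither gene passed under FFSS.
Nr1d1, chr11:98775383-98775422, minus strand: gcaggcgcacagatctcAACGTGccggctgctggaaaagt
Arntl, chr7:113207529-113207558, plus strand: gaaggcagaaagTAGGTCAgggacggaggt
The ROR element was in 2.61% of all windows. The windows of Clock, Nr1d2 and Dbp held none of the letters searched.

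Dbp, a PAR bZIP factor and a direct output of ARNTL and CLOCK, showed the largest change among the members. Dbp (chr7:52960458-52965525, plus strand) was at 15.8, 15.2 and 13.3 CPM in control static and at 10.4, 5.91 and 7.87 CPM in control FFSS libraries, all lower. It fell 1.84-fold (log2 −0.88, SE 0.15, adjusted p = 0.000963), and by 1.10 on the log2 scale without control FFSS replicate 1. In DKO cells it was at 11.1, 11.1 and 10.6 CPM static and at 9.73, 9.40 and 8.78 CPM under FFSS. These groups did not overlap either, with a log2 fold change of −0.23 that did not pass (SE 0.16, adjusted p = 0.592). Dbp shares 491 bases of exon with Sphk2, a sphingosine kinase gene on the other strand with 281% of its counts. Sphk2 did not pass in the same comparison (log2 fold change 0.12, adjusted p = 0.252).

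**Figure D2:**
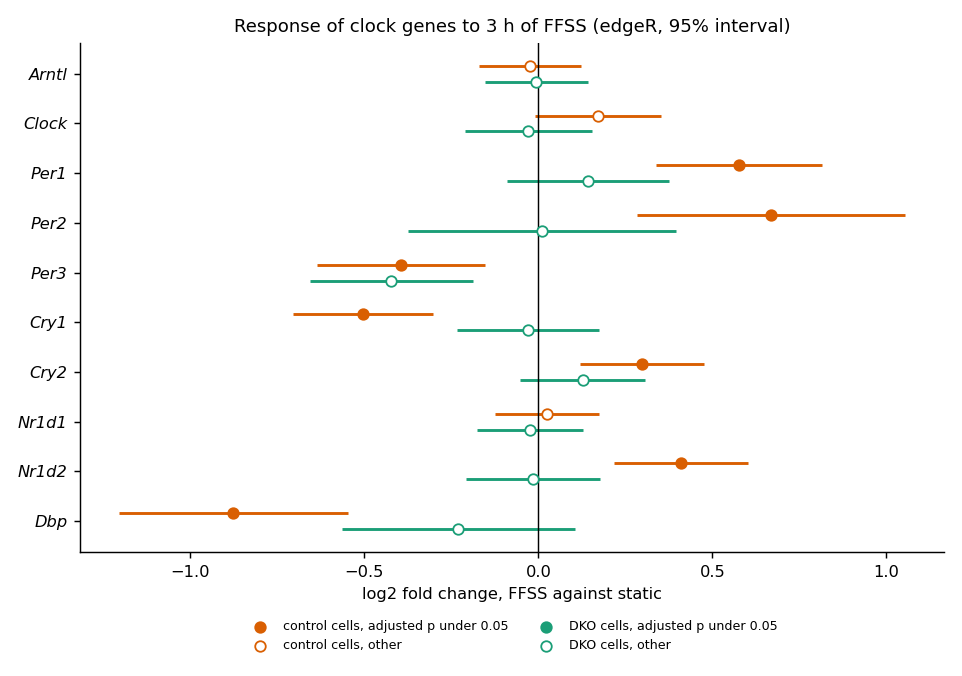
Log2 fold change of FFSS against static for the 10 clock genes in control and in DKO cells, with 95% intervals from edgeR and filled points at an adjusted p under 0.05. In control cells the values run from −0.88 (Dbp) to 0.67 (Per2), and in DKO cells all but Per3 and Dbp lie between −0.03 and 0.14.

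In DKO cells as a group, 0 of the 10 members passed under FFSS by edgeR, where 0.872% of all genes did. Per3 was the 1 member with an unadjusted p under 0.05, where 13.5% of all genes had one, and by DESeq2 it was the 1 member that passed, where 3.69% of all genes did. Per3 also passed without control FFSS replicate 1, where 10.5% of all genes did, and in the 6 DKO libraries alone, where 11.2% did. All 3 FFSS libraries lay on one side of the static ones for Per1 and Cry2 (higher) and for Per3 and Dbp (lower), 4 of 10 where 29.9% of all genes separated. The median absolute log2 fold change was 0.03 over the members and 0.12 over all genes.

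Whether the response differed between genotypes was tested as an interaction, the DKO response minus the control response. By edgeR 0 of the 10 members passed, where 3.97% of all genes did, and 5 had an unadjusted p under 0.05, where 23.8% of all genes had one. These were Per1 (log2 difference −0.43), Per2 (−0.66), Nr1d2 (−0.43), Cry1 (0.47) and Dbp (0.65), each with the DKO response smaller in size. The lowest adjusted p was 0.0663, for Cry1, and DESeq2 passed Cry1 and Nr1d2, where it passed 9.59% of all genes. The difference for Per1 was −0.26 without control FFSS replicate 3. For Per3 the responses were nearly equal, with a difference of −0.03 and an interval from −0.37 to 0.31.

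The count for the interaction turned on 1 library. Measured against the mean of the control static libraries, the median absolute response of the 10 genes was 0.18 on the log2 scale in control FFSS replicate 1, 0.50 in replicate 2 and 0.43 in replicate 3, and 0.07, 0.14 and 0.08 in the 3 DKO FFSS libraries against their own static mean. Per1 responded by 0.27, 0.53 and 0.87 in the control FFSS libraries, and Cry1 by −0.27, −0.66 and −0.61. Replicate 1 was thus the weakest for most members. Per3 was an exception, with −0.50, −0.48 and −0.20.

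Without control FFSS replicate 1, 7 of the 10 members passed the interaction, where 37.6% of all genes did. Clock, Per1, Per2, Cry2 and Nr1d2 had a negative difference, from −0.26 (Cry2) to −0.87 (Per2) on the log2 scale, and Cry1 (0.61) and Dbp (0.87) a positive one. In the same fit 8 members passed for FFSS in control cells, where 55.0% of all genes did, the 7 named above and Clock. The log2 fold changes there were 0.71 for Per1, 0.88 for Per2, −0.34 for Per3, −0.63 for Cry1, 0.39 for Cry2, 0.49 for Nr1d2 and −1.10 for Dbp, larger in size than with all libraries except for Per3. The share of reads outside genes was also lowest in replicate 1 among the control FFSS libraries, and with this share as a covariate 1 member (Per3) passed for FFSS in control cells, where 15.4% of all genes did. In a fit of the 6 control libraries alone 4 members passed (Per1, Cry1, Nr1d2 and Dbp), where 14.7% of all genes did. The part of that share in these results cannot be told apart from that of FFSS.

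**Figure D3:**
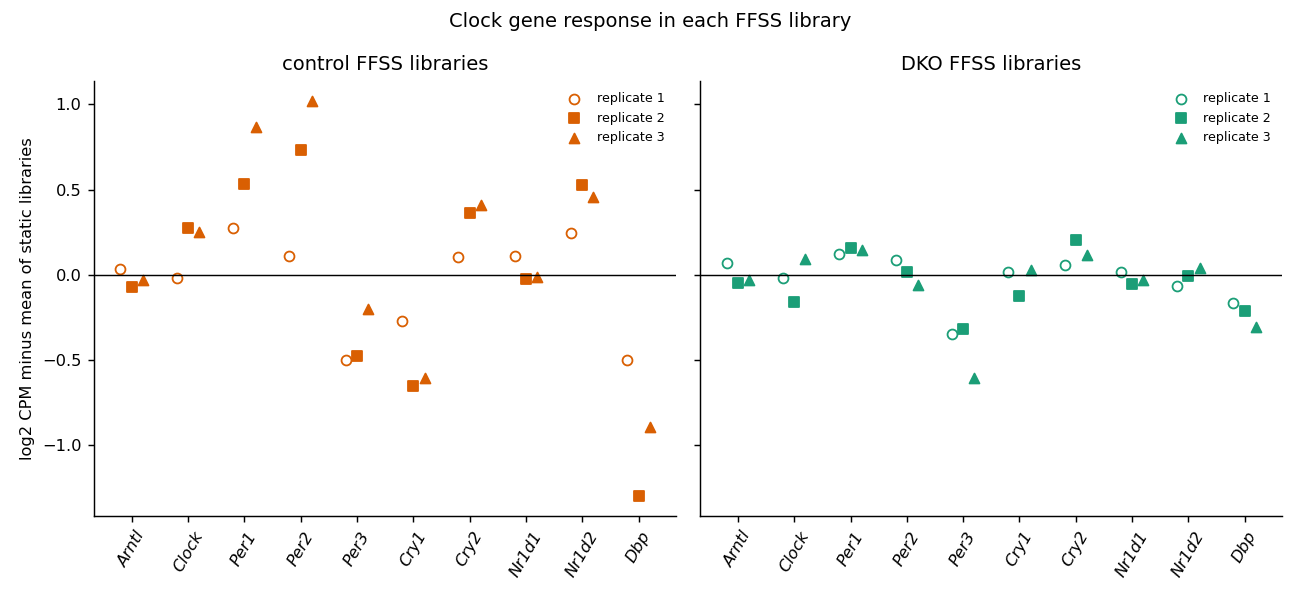
Log2 CPM of each clock gene in each FFSS library minus the mean of the 3 static libraries of the same genotype, with control cells on the left, DKO cells on the right and 1 symbol per replicate. Control FFSS replicate 1 (open circles) lies nearer to 0 than replicates 2 and 3 for Per1 and Cry1 and is farthest from 0 for Per3.

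Differences between the genotypes at rest were read from the static libraries. Of the 10 members, 7 passed, where 54.2% of all genes did, a background in which most genes differ. Per1 (1.80-fold, log2 0.85, SE 0.11, adjusted p = 1.97e-05), Per3 (1.42-fold) and Nr1d2 (1.41-fold) were higher in DKO cells, 3 of 10 where 27.0% of all genes were higher. Cry1 (1.58-fold, log2 −0.66, SE 0.09, adjusted p = 3.95e-05), Dbp (1.35-fold), Nr1d1 (1.28-fold) and Clock (1.16-fold) were lower, 4 of 10 where 27.2% of all genes were lower. Of 22 alternatives, Dbp lost the threshold in 6: without 1 static library, whichever was left out except control static replicate 3 (adjusted p from 0.0535 to 0.0852), and with the share of reads outside genes as a covariate (log2 −0.16, adjusted p = 0.335). Clock passed narrowly (adjusted p = 0.0459) and lost the threshold in 11 of 22, and Per2, higher in all 3 DKO libraries with a log2 difference of 0.44, narrowly missed (adjusted p = 0.0530). Per2 gained the threshold in 6 of 22, among them without control FFSS replicate 1 (adjusted p = 3.68e-05), where 63.8% of all genes passed. No member exceeded 2-fold, which 15.3% of all genes did. All libraries of one genotype lay above those of the other for 8 members, where 69.0% of all genes separated. Arntl (log2 difference 0.03) and Cry2 (−0.03) overlapped.

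Under FFSS 4 of the 10 members passed between the genotypes, where 56.6% of all genes did. Per1 (log2 difference 0.41, SE 0.11, adjusted p = 0.00523) and Per3 (0.47, SE 0.11, adjusted p = 0.00255) were higher in DKO cells, 2 of 10 where 27.0% of all genes were higher. Clock (−0.41, SE 0.08, adjusted p = 0.000793) and Nr1d1 (−0.41, SE 0.07, adjusted p = 0.000200) were lower, 2 of 10 where 29.6% of all genes were lower. Library totals alone in place of TMM moved the median of all genes to −0.25 on the log2 scale, and 2762 of 9056 genes passed as higher, against 4024 of 8438 with TMM. In that fit neither Per gene passed and Clock, Cry1, Cry2 and Nr1d1 were lower. Nr1d2, Cry1 and Dbp, which differed at rest, overlapped between the genotypes under FFSS, with log2 differences of 0.07, −0.18 and 0.21. Without control FFSS replicate 1, 7 members passed, where 65.0% of all genes did: Per2 (−0.43), Cry2 (−0.29) and Dbp (0.43) joined the 4, and Per1 was at 0.28, Per3 at 0.42, Clock at −0.50 and Nr1d1 at −0.36. The 2 comparisons by genotype share no library, whereas each shares control or DKO libraries with a comparison of FFSS.

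**Figure D4:**
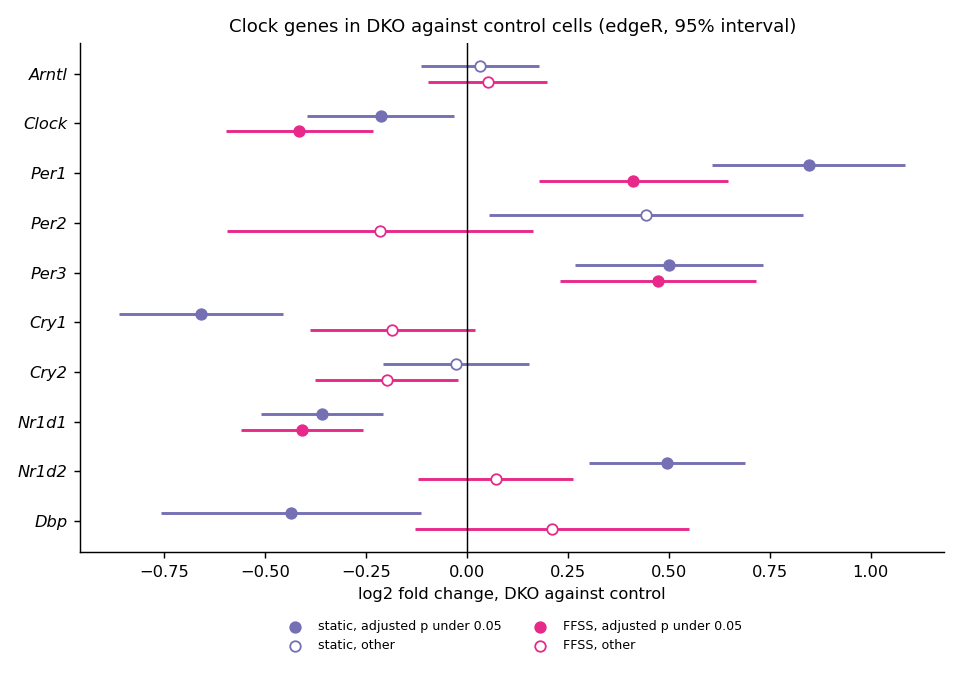
Log2 fold change of DKO against control cells for the 10 clock genes, static and under FFSS, with 95% intervals from edgeR and filled points at an adjusted p under 0.05. Per1 and Per3 lie right of 0 and Nr1d1 and Clock left of it in both conditions, and Cry1 lies at −0.66 static and −0.18 under FFSS.

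A list of 26 other clock genes was read beside the 10, and 25 of them were tested (Rorb, at 0 counts in 5 libraries, was not). Under FFSS in control cells 2 of the 25 rose and 9 fell, where 17.7% of all genes were higher and 18.1% lower, with a median log2 fold change of −0.07 against 0.01 over all genes. Those that fell include the largest changes of the clock genes. Npas2, a paralog of Clock that also pairs with ARNTL, went from 45.0, 43.8 and 40.3 CPM to 19.6, 5.81 and 9.16 CPM (log2 −1.91, SE 0.33, adjusted p = 0.00208). Bhlhe40 (DEC1), which competes for E-boxes, went from 710, 701 and 706 CPM to 333, 266 and 260 CPM (log2 −1.30, SE 0.09, adjusted p = 1.02e-06). Nampt, the rate-limiting enzyme of NAD salvage and an E-box output, went from 244, 237 and 233 CPM to 119, 120 and 113 CPM (log2 −1.02, SE 0.05, adjusted p = 3.46e-08). Every FFSS library of these 3 genes lay below every static one, and each changed more than 2-fold. With the share of reads outside genes as a covariate they still passed, with log2 fold changes of −0.96, −1.03 and −0.98, and 7 of the 25 passed, all lower, where 15.4% of all genes passed. Without control FFSS replicate 1, 16 passed, where 55.0% of all genes did.

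Genes of the second loop of the clock did not move alike. Rora and Nfil3 were lower, whereas Nr1d2 was higher (0.41) and Nr1d1 (0.02) and Arntl (−0.02) did not pass. Rora, an activator of Arntl, had a log2 fold change of −0.82 (adjusted p = 4.54e-05), and Nfil3, which represses D-box genes, one of −0.87 (adjusted p = 0.000105). Ciart (CHRONO), a repressor of ARNTL and CLOCK, had a smaller one of −0.34 (adjusted p = 0.0131). Usp2 (−0.64), Wee1 (−0.34) and Gsk3b (−0.18) were also lower, and Csnk1e (0.31), a kinase of PER, and Hdac3 (0.14), the deacetylase that REV-ERB recruits through NCOR1, were higher. Bhlhe41 (−0.14), Tef (−0.14), Arntl2 (0.12) and Hlf (−0.01) did not pass. For Usp2, Rnf26 on the other strand shares 200 bases of exon and had 294% of its counts.

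In DKO cells 1 of the 25 passed under FFSS, where 0.872% of all genes did: Nampt, from 110, 112 and 114 CPM to 82.0, 89.7 and 87.9 CPM (log2 −0.37, SE 0.05, adjusted p = 0.00670). Rora passed as well without control FFSS replicate 1, where 10.5% of all genes did, with library totals alone and by DESeq2, and Rora and Arntl2 passed as well with the covariate. The interaction passed for 3 of the 25, where 3.97% of all genes passed: Bhlhe40, Nfil3 and Nampt, whose response was less negative in DKO cells. Without control FFSS replicate 1 it passed for 9, these 3 and Npas2, Arntl2, Rora, Csnk1e, Usp2 and Noct, a share near the 37.6% of all genes that passed in that fit.

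At rest 7 of the 25 were higher and 11 lower in DKO cells, where 27.0% of all genes were higher and 27.2% lower, with a median log2 difference of −0.29 against 0.01 over all genes. More than 2-fold lower were Npas2 (log2 −2.996), Bhlhe41 (DEC2, −1.87), Ciart (−1.77), Bhlhe40 (−1.62), Nfil3 (−1.22), Nampt (−1.08) and Rora (−1.01). Ciart, for example, was at 66.2, 55.1 and 61.9 CPM in control static and at 18.3, 16.5 and 19.2 CPM in DKO static libraries. Under FFSS 6 of the 25 were higher and 11 lower in DKO cells, where 27.0% of all genes were higher and 29.6% lower, and those more than 2-fold apart include Npas2 (−1.44), Ciart (−1.54), Bhlhe41 (−1.67), Arntl2 (−1.03), Hlf (−1.01), Noct (−1.24) and Usp2 (1.26). Bhlhe40 (−0.46), Rora (−0.62) and Nampt (−0.44) were lower as well, and Nfil3 (−0.26, adjusted p = 0.0644) did not pass. Of the 25, 6 were higher and 13 lower without control FFSS replicate 1, where 65.0% of all genes passed. With library totals alone 4 of the 25 were higher and 17 lower under FFSS, and 4 higher and 13 lower at rest.

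**Figure D5:**
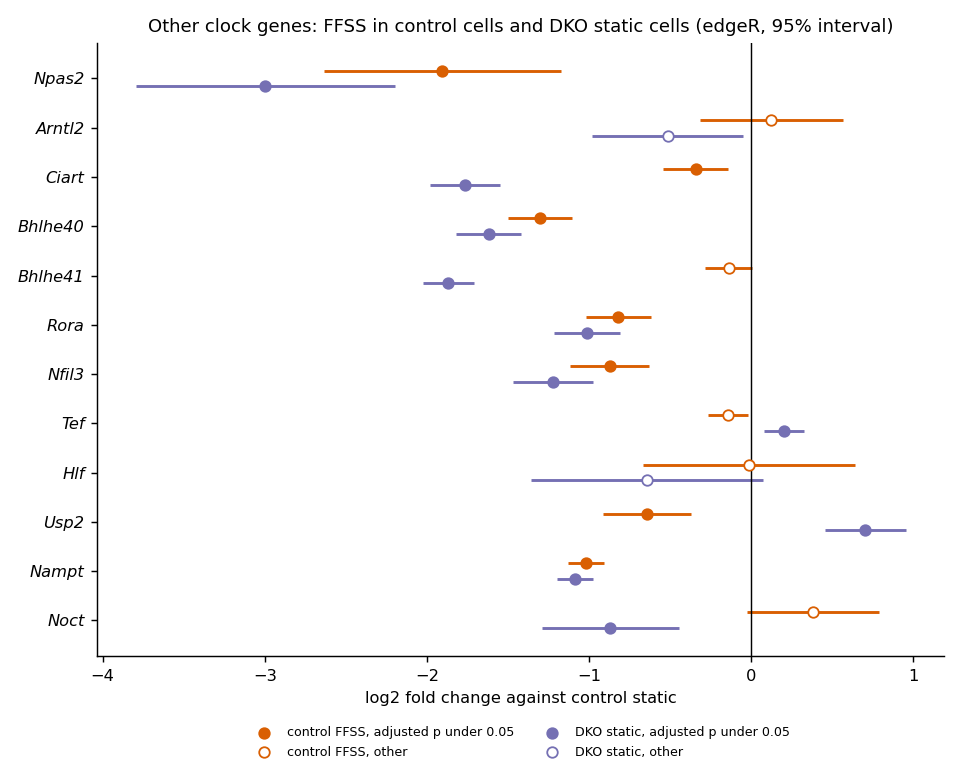
Log2 fold change against control static cells for 12 other clock genes, in control FFSS cells and in DKO static cells, with 95% intervals from edgeR and filled points at an adjusted p under 0.05. Both comparisons use the same 3 control static libraries. Npas2, Bhlhe40 and Nampt lie at −1.91, −1.30 and −1.02 under FFSS and at −2.996, −1.62 and −1.08 in DKO cells.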

How the data were processed

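RNA was sequenced from Ocy454 cells in 12 libraries. Per the labels and the study's methods, the authors sequenced single-end reads on a BGISEQ-500, mapped them with STAR to mm9 with Ensembl annotation, and deposited raw counts of reads per gene made with HTSeq. The counting took no account of strand, and HTSeq leaves out reads that map to several places or to overlapping genes.

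Groups were taken from the titles. The 5 HTSeq summary lines were left out of totals and tests, and reads outside annotated genes (5.10 to 10.04% per library) are described in the report. Genes with 0 counts in 2 or more libraries were removed, as in the study, leaving 14904 of 24360 genes with any count. All 12 libraries were fitted as 4 groups with edgeR 4.0.16 in R 4.3.3 (robust quasi-likelihood test, TMM), with Benjamini-Hochberg adjustment over all genes tested and an adjusted p under 0.05 as the threshold. The 5 comparisons were FFSS in each genotype, their difference, and DKO against control in each condition. CPM used TMM-scaled totals, RPKM the summed exon length, and log2 CPM a prior count of 2. Standard errors (SE) were derived from each gene's fold change and F statistic. Coordinates of genes are 1-based, from an mm9 annotation. Depth was 17.6 to 19.2 M assigned reads per library. Alternatives used DESeq2 1.42.0, limma 3.58.1 (voom), other scaling and filters, the libraries of a comparison alone, a replicate block, a covariate and the omission of each library. The fit was tested on simulated data with the same spread in all 4 groups, unlike these data, so unequal spread was not tested. The 10 genes and the other lists (clock, cell type markers) were chosen with earlier results of these data known. The named genes are all members, those of the wider clock list past 2-fold or central to the loops, and overlapping genes with more than 10% of a member's counts. Of the wider list, the genes that moved in control cells are also named. One gene of that list is counted but not reported here by name. Promoter sequences are RefSeq's, build GRCm38.p6.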

Additional observations from a re-analysis of the deposited data

Results flagged for a closer look

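By the interaction test the response to FFSS differed between genotypes in 3 of 25 wider clock genes and none of the 10 members. Of all genes tested, 3.97% passed. Without control FFSS replicate 1, 9 of the 25 and the members named above for that fit passed, where 37.6% of all genes did. For Bhlhe40 the DKO response minus the control response was 1.16 on the log2 scale (SE 0.13, adjusted p = 0.000400). The log2 fold change was −1.30 in control and −0.14 in DKO cells. For Nfil3 the difference was 0.96 (SE 0.16, adjusted p = 0.00734), from −0.87 in control and 0.09 in DKO cells. For Nampt it was 0.64 (SE 0.07, adjusted p = 0.000482), from −1.02 and −0.37. All 3 genes were already lower in DKO static than in control static cells, and the 3 libraries of DKO FFSS were at 207 to 211 CPM for Bhlhe40, 27.7 to 31.9 CPM for Nfil3 and 82.0 to 89.7 CPM for Nampt. Without control FFSS replicate 1 the differences were 1.29, 0.84 and 0.66, and with the share of reads outside genes as a covariate 0.98, 1.17 and 0.62, all past the threshold.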

How the results depend on the processing

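The counts of clock genes past the threshold were 7 for FFSS in control cells, 0 in DKO cells, 0 for the interaction, and 7 and 4 for DKO against control static and FFSS cells. Of all genes, 35.8%, 0.872%, 3.97%, 54.2% and 56.6% passed in these comparisons in the same order. With a 2-fold limit the count was 0 in each comparison with all libraries, and without control FFSS replicate 1 Dbp passed that limit for FFSS in control cells (log2 −1.10). RLE factors, filterByExpr, limma-voom and the non-robust fit changed no count by over 1.5 times. FFSS in control cells gave 4 members in its 6 libraries alone and 1 with the covariate, where 14.7% and 15.4% of all genes passed. FFSS in DKO cells gave 1, Per3, by DESeq2, in its 6 libraries and with the covariate, where 3.69%, 11.2% and 9.95% of all genes passed. It also gave Per3 without control FFSS replicate 1, where 10.5% of all genes passed. The interaction gave 1 with library totals (Nr1d2), 1 without a filter (Cry1) and 2 by DESeq2, where 5.61%, 2.55% and 9.59% of all genes passed. With the replicate number as a block it gave 1 (Cry1; 2.80% of all genes), and the static comparison 6, without Clock (53.6%). The numbers are not taken as pairs: the mean correlation of same-numbered libraries was −0.01, and 2 of 12 libraries correlated best with their own number. Leaving out 1 library gave 6 to 8, 0 to 1, 0 to 7, 5 to 8 and 4 to 7 members in the 5 comparisons in that order, where 24.2 to 55.0%, 0.0866 to 10.5%, 1.20 to 37.6%, 48.3 to 63.8% and 49.8 to 65.0% of all genes passed, and the 7 of the interaction and of DKO against control FFSS cells both came without control FFSS replicate 1.

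Of 1090 values of single members under alternatives, 987 kept direction and call, 32 lost the threshold, 33 gained it and 38 turned direction. Of these 38, Per2 was the 1 that had passed: with the covariate its FFSS value was −0.0337 in control cells, and −0.207 in DKO cells. Library totals turned Arntl (0.0993 and 0.00573 for FFSS in control and DKO cells, −0.0936 for the interaction, −0.0506 static, −0.144 under FFSS) and Nr1d2 (−0.129 under FFSS). The covariate turned Arntl (0.0444, 0.0181 and −0.0264 for FFSS in control and DKO cells and the interaction), Clock (−0.0733 in control cells), Cry1 and Nr1d1 (0.0659 and 0.0133 in DKO cells) and Per3 (0.0705 for the interaction), and the 6 libraries turned Arntl in DKO cells (0.000941). Without 1 library, FFSS in control cells ran from −0.0532 to 0.000260 for Arntl and from −0.0210 to 0.0589 for Nr1d1. FFSS in DKO cells ran from −0.0573 to 0.0483 for Arntl, −0.0915 to 0.0334 for Clock, −0.0587 to 0.0555 for Per2, −0.0909 to 0.0180 for Cry1, −0.0610 to 0.00167 for Nr1d1 and −0.0531 to 0.0629 for Nr1d2. The interaction ran from −0.0323 to 0.0735 for Arntl and from −0.0821 to 0.0759 for Per3, the static comparison from −0.0202 to 0.0855 for Arntl and that under FFSS from −0.00772 to 0.131 for Nr1d2. The causes were not tested. In the wider list the 3 genes that passed the interaction also passed under all 4 alternatives, which were added after seeing the data. Dbp and Per3 rest on the fewest counts of the 10 genes.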

Other observations

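The genes most like a member in their pattern over the 4 group means, each centred on its own mean, were found among genes with an average log2 CPM above 1 by Euclidean distance on the log2 scale. For Per1 they were Fancm (distance 0.04) and Cecr5 (0.04), for Dbp Clec11a (0.05) and Hdac11 (0.10), and for Per3 Rcan2 (0.03) and R74862 (0.04). A pattern over 4 means is matched closely by some of many genes, and the distances are a description.

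Among the promoter windows of the wider clock list, that of Ciart held 3 copies of the E-box CACGTG, at −116, −58 and −44. Each of 2 windows of Tef held 1, at −127 and −138, and that of Bhlhe41 held 1, at −153. Some other windows of the list held other elements searched. The windows of Npas2, Rora, Noct and Arntl2 held none of the letters searched. Ciart, Bhlhe41 and Npas2 were lower in DKO static cells, with log2 differences of −1.77, −1.87 and −2.996, and Tef was higher (0.20).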
